A study of Mus musculus with 6 samples.

Results

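The SLC25 solute carriers are the transport proteins of the inner mitochondrial membrane that nuclear genes encode under the Slc25a symbols. The members described here are all protein-coding rows of the deposited count table whose symbol starts with Slc25a, 47 of 54929 rows, and 39 of them had enough reads to be tested. The libraries were made from left ventricles of wild-type (WT) C57BL/6 mice, and both groups had undergone TAC, transverse aortic constriction, an operation that narrows the aorta and loads the left ventricle with pressure. In 3 libraries the mice had received anti-IgG antibody, the control, and in 3 an anti-PD-1 antibody, which blocks an inhibitory receptor of T cells; both were given into the peritoneum at 10 mg/kg every 3 days from day 14 after surgery. Every library carries a time label of 5 weeks. The labels give no sex or age, no unoperated group was analysed here, and nothing says that each library is a mouse of its own. The p-values therefore describe the spread between these samples, which may be technical. Libraries are called TAC1 to TAC3 (anti-IgG) and TP1 to TP3 (anti-PD-1), as the submitters named them.

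A carrier of this family is a small protein built of repeated domains that alternates between an opening to the cytosol and one to the matrix, and in most members it swaps one substrate for another. Together the carriers bring ADP, phosphate, fatty acyl groups and cofactors into the matrix and let ATP, citrate and aspartate out. The heart makes nearly all its ATP in mitochondria, so exchange of ADP for ATP and uptake of phosphate are among the busiest transport steps of a cardiomyocyte. In mouse tissues the heart and muscle form of the ADP/ATP carrier is Slc25a4 (ANT1), Slc25a5 (ANT2) is the form of many other and dividing cells, and Slc25a31 (ANT4) is the form of the testis.

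The coding sequences of the 3 ADP/ATP carriers are shown because Slc25a4 had the most reads of the family in every library. The bases that differ are also what lets a read be assigned to one gene. Each stretch below is 30 bases of the GENCODE M21 coding sequence, 5′ to 3′, with capitals for bases at which the genes aligned there differ. The first pair covers coding bases 1 to 30.
Slc25a4 start: atgGGGgatCAGgctTtgAGcttTCTTaag
Slc25a5 start: atgACAgatGCCgctGtgTCcttCGCCaag
At 13 of these 30 bases the pair differ. The second stretch lies at coding bases 697 to 726 of Slc25a4 and Slc25a5 and 736 to 765 of Slc25a31, and encodes the run of arginines and methionines that marks ADP/ATP carriers. In Slc25a4 the capitals show bases that differ from at least 1 of the others, and in the other genes those that differ from Slc25a4.
Slc25a4 signature: acTgttCgTCgTAgGatgatgatgcagTCt
Slc25a5 signature: acGgttcgCcgtCgTatgatgatgcagtct
Slc25a31 signature: acAgttAgAAgACgTatgatgatgcagAGt
Here Slc25a5 differs from Slc25a4 at 4 bases and Slc25a31 at 9. Over the whole coding sequence Slc25a4 and Slc25a5 shared 692 of 894 aligned bases (77.4%). Slc25a4 had no near copy among the annotated transcripts (at least 95% identity over at least 200 bp), and the 2 near copies of Slc25a5 held 147 reads in all, 0.604% of the reads of Slc25a5.

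Total counts ran from 18063344 to 21093163 reads per library. The labelled tissue was checked against ventricle and atrium markers. Myh6, the main myosin of the adult mouse ventricle, stood at 8167 CPM (the counts of a gene relative to its library's total, scaled between libraries by TMM) under anti-IgG and 8384 CPM under anti-PD-1, the atrial gene Sln had 0 reads, and Myl7 stood at 0.0342 and 0.0357 CPM. Of the other atrium markers, Myl4 stood at 1.74 and 0.708 CPM and Nppa, which a ventricle under pressure overload is also known to make, at 456.9 and 135.4 CPM. Of the whole table, 14807 genes were tested with edgeR's quasi-likelihood test, and 21.1% of them changed at a Benjamini-Hochberg adjusted p under 0.05, 10.3% upwards and 10.8% downwards.

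The level of a carrier, compared between genes, is given per kilobase of the authors' gene length as TMM-scaled RPKM, the CPM divided by that length. Slc25a4 led in every library, at 1259 ± 364.2 RPKM under anti-IgG and 604.7 ± 106.0 RPKM under anti-PD-1 (mean ± SD, n = 3 each). Slc25a3, which carries phosphate into the matrix, followed at 218.8 ± 22.26 and 181.6 ± 21.96 RPKM. Slc25a11, the oxoglutarate carrier of the malate-aspartate shuttle, had levels of 157.9 ± 29.94 and 151.0 ± 22.89 RPKM, and Slc25a5 of 142.6 ± 28.28 and 110.5 ± 4.39 RPKM. These 4 genes stood above every other member in both groups. Slc25a11 and Slc25a5 overlapped each other with anti-IgG, and Slc25a3 and Slc25a11 with anti-PD-1, so their order within those pairs is not larger than the spread between libraries.

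A second tier followed at 14.7 to 33.2 RPKM with anti-IgG: Slc25a39 (33.2), Slc25a20 (21.3), Slc25a13 (20.4), Slc25a34 (19.97), Slc25a12 (15.8) and Slc25a46 (14.7). With anti-PD-1 the same 6 genes lay at 16.8 to 37.4 RPKM, with Slc25a13 (37.4) and Slc25a39 (34.9) ahead of Slc25a34 (28.9), Slc25a46 (25.8), Slc25a12 (25.7) and Slc25a20 (16.8). Next to one another in that order their libraries overlapped, except Slc25a39 and Slc25a20 with anti-IgG. The authors' gene length can be far above that of 1 transcript: Slc25a3 is listed at 5550 bp, although its coding part has 1074 bp and its 3′ UTR 175 bp. Per kilobase of coding and 3′ UTR length, a measure added after the data were seen, Slc25a3 stood at 972 (scaled reads per kilobase, in CPM) under anti-IgG and 807 under anti-PD-1, against 1895 and 910 for Slc25a4. The 10 highest genes were the same by both measures.

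**Figure D1:**
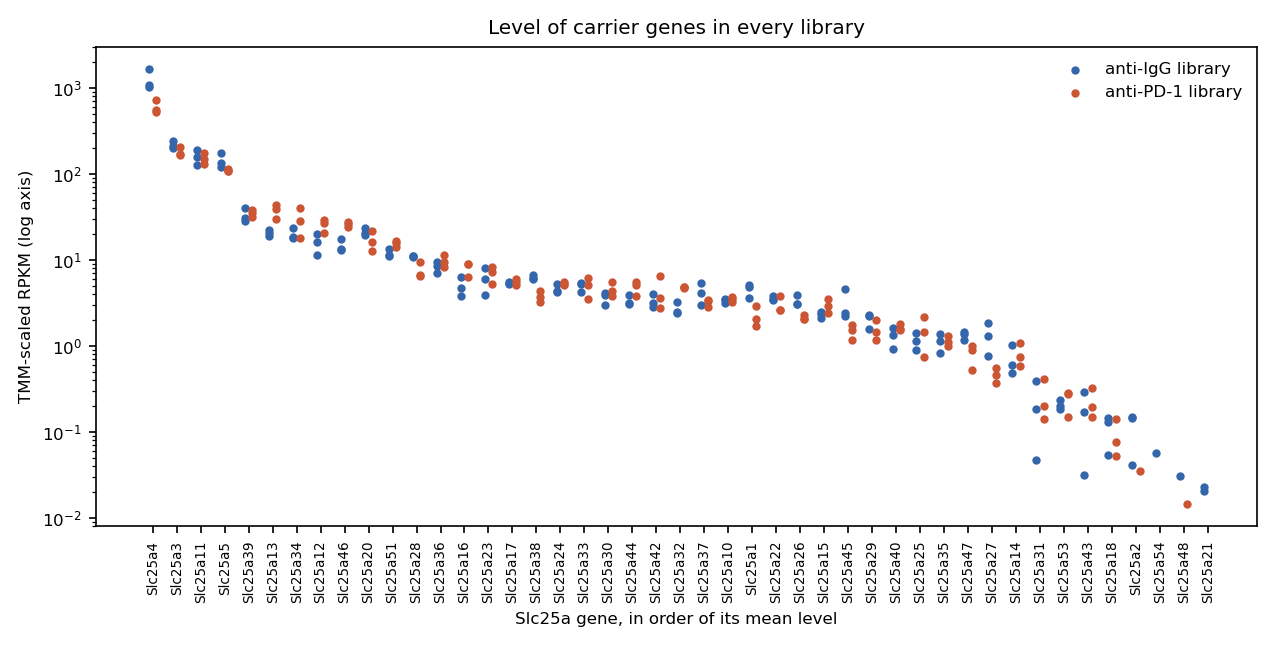
Level of carrier genes with at least 1 read (1 member is not drawn), in order of its mean over all libraries (x axis), as TMM-scaled RPKM on a log axis (y axis). Each point is 1 library, blue for anti-IgG and red for anti-PD-1, and a library at 0 is not drawn; Slc25a4 lies above all others, and the points of Slc25a13 with anti-PD-1 lie above those with anti-IgG.

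The means of the other 29 tested members lay below that tier in each group, at 0.205 RPKM (Slc25a53, with anti-IgG) to 15.5 RPKM (Slc25a51, the NAD carrier, with anti-PD-1). The 8 members that were not tested had 0 to 57 reads in the 6 libraries together. Slc25a31, the testis form of the ADP/ATP carrier, had 25 reads under anti-IgG and 32 under anti-PD-1, a ratio of read shares of 1.20 (95% exact binomial interval 0.691 to 2.12, for counting error only), and the testis markers Tnp1, Prm1 and Tnp2 had 0 reads. Slc25a43 had 17 and 24 reads, Slc25a18, a glutamate carrier, 12 and 10, and Slc25a2, an ornithine carrier, 9 and 1. For Slc25a2 the ratio was 0.105 (0.00238 to 0.754). Slc25a21 (4 and 0 reads), Slc25a54 (2 and 0) and Slc25a48 (2 and 1) were close to absent. Slc25a41 had 0 of 117076089 reads, which allows a level of up to 0.0256 CPM over the 6 libraries. A difference in these 8 genes was not tested at this depth.

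With anti-PD-1, 10 of the 39 tested carriers changed (25.6%, against 21.1% of all tested genes): 4 rose, 6 fell and 29 did not pass. Slc25a13, Slc25a46, Slc25a32 and Slc25a16 rose, by 0.70 to 0.87 on the log2 scale. Slc25a4, Slc25a1, Slc25a38, Slc25a45, Slc25a26 and Slc25a27 fell, with log2 fold changes from -1.49 to -0.64. In these bulk samples, fewer cells of a type and less RNA per cell cannot be told apart. The median log2 fold change was 0.06 over the tested carriers and -0.03 over all tested genes, and 22 carriers lay above 0 and 17 below. The groups' libraries did not overlap for 14 carriers (35.9%, against 41.0% of all tested genes), 5 higher and 9 lower with anti-PD-1. By DESeq2 11 carriers changed, beside 25.4% of all tested genes, and by limma-voom 8, beside 19.9%. Changes past the threshold and of at least 1 on the log2 scale were seen in 4 carriers, beside 9.62% of all tested genes, and 0 carriers passed an edgeR adjusted p under 0.01, beside 3.86%, where 13 had an unadjusted p under 0.05. The share of carriers that changed was thus near the background, and the changes had no common direction. The number that changed depended on which library was left out. It was 1 without TAC2, 2 without TP1, 3 without TAC3, 5 without TP3, 7 without TP2 and 11 without TAC1. In these fits, in the same order, 3.52%, 6.36%, 10.3%, 11.6%, 16.3% and 24.1% of all tested genes changed.

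**Figure D2:**
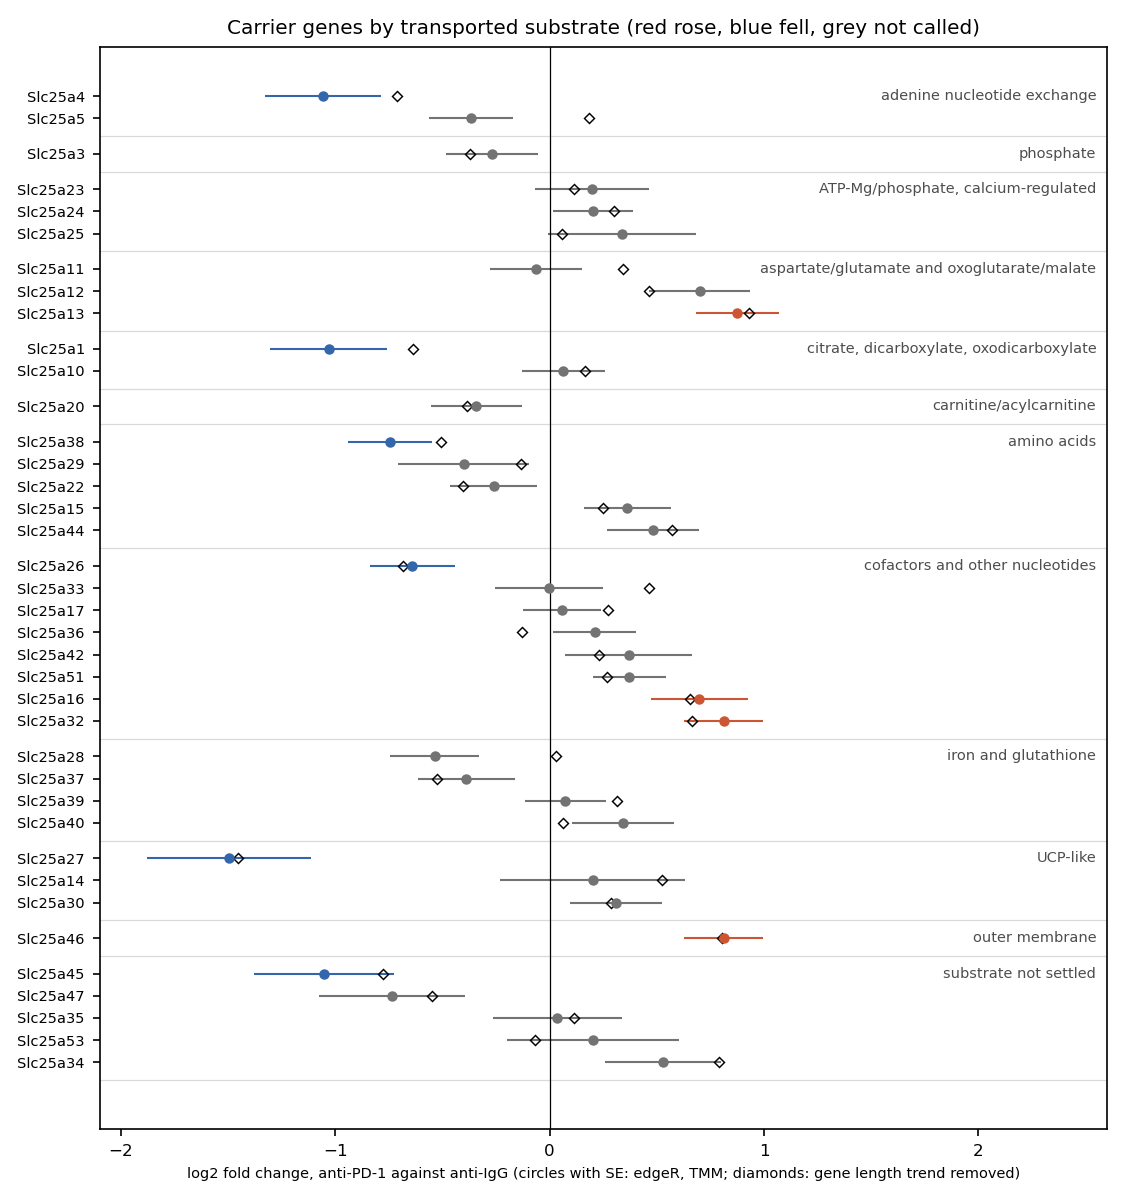
Log2 fold change of the tested carriers (1 is not drawn) with anti-PD-1 against anti-IgG (x axis), by transported substrate (y axis). Circles with bars are edgeR values with their SE, red for the 4 that rose, blue for the 6 that fell and grey for those that did not pass, and open diamonds are the values after each library's trend on gene length was removed; Slc25a4, Slc25a1 and Slc25a5 move towards or past 0, and Slc25a13, Slc25a46 and Slc25a27 stay close.

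Among the carriers of adenine nucleotides, 1 of 2 tested members fell. Slc25a4 (ENSMUSG00000031633; chromosome 8, 46206797 to 46211284 in mm10, minus strand) had 49544, 42890 and 78841 reads under anti-IgG (TAC1 to TAC3) and 26476, 31862 and 25838 under anti-PD-1 (TP1 to TP3). All anti-PD-1 libraries lay below all anti-IgG libraries, and TAC3 stood above the rest. Scaled levels were 2962 ± 857.0 CPM under anti-IgG and 1423 ± 249.5 CPM under anti-PD-1, which is -1.06 on the log2 scale with an SE of 0.27 (adjusted p = 0.0215 by edgeR). Its share of all reads of the carriers went from 50.8 ± 5.98% (46.4 to 57.6%) with anti-IgG to 33.9 ± 1.62% (32.4 to 35.6%) with anti-PD-1, and the carriers together took 0.584 ± 0.114% and 0.412 ± 0.0340% of all reads. The call ended without TAC3, where the log2 fold change was -0.79 (edgeR adjusted p = 0.0699), and without TP1 (0.0764) or TP3 (0.0803). With each library's trend on gene length removed it was -0.71 (edgeR adjusted p = 0.0927).

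Slc25a5 had 3851, 3932 and 5727 reads under anti-IgG and 3589, 3548 and 3676 under anti-PD-1. Its scaled levels did not overlap, 234.7 ± 46.5 CPM against 181.9 ± 7.23 CPM, but the difference did not pass (log2 fold change -0.37 with an SE of 0.20, adjusted p = 0.197 by edgeR) and took the opposite sign, 0.18, with the gene length trend removed. A ratio of both genes within a library does not depend on how libraries are scaled. Slc25a4 had 12.9, 10.9 and 13.8 reads for each read of Slc25a5 in the anti-IgG libraries, and 7.38, 8.98 and 7.03 in the anti-PD-1 libraries. Per kilobase of gene length the mean ratio was 8.75 and 5.45. The heart form was thus the more abundant in every library, and its excess was smaller in each anti-PD-1 library than in any anti-IgG library. The log2 ratio was 0.68 lower with anti-PD-1 (exact 2-sided permutation p = 0.1, the smallest that 3 against 3 libraries allow, and 0.9 after adjustment over 9 pairs). With the gene length trend removed the difference in the log2 ratio was -0.89.

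Markers of cardiomyocytes, the cells in which Slc25a4 is highest, did not all move one way beside it. Their summed level was 25940 to 29360 CPM under anti-IgG and 18190 to 29760 CPM under anti-PD-1. Of 7 tested markers, Tnnt2 (log2 fold change -1.22) and Tnni3 (-1.35), subunits of cardiac troponin, fell, Ryr2 (1.39), the calcium release channel, rose, and Myh6 (0.04), Myh7, Actc1 and Pln did not pass (edgeR's quasi-likelihood test). None of 5 fibroblast and 4 endothelial markers passed, nor any of the 2 tested markers each of adipocytes, atrium and skeletal muscle. Adgre1 rose (0.97) among 4 macrophage markers, Kcnj8 (-0.64) fell among 4 of smooth muscle and pericytes, and Trac (-1.32), the 1 tested T cell marker of 4, fell. Summed T cell markers stood at 2.51 to 3.69 CPM in the anti-IgG libraries and 1.39 to 2.09 CPM in the anti-PD-1 libraries. With the gene length trend removed Tnni3 (-0.94, edgeR adjusted p = 0.0550), Kcnj8 (-0.36, 0.173) and Trac (-0.61, 0.352) did not pass, while Tnnt2, Ryr2 and Adgre1 did. Acta1, listed with the skeletal muscle markers, newly passed in that setting (1.10, edgeR adjusted p = 0.0410). Myh1, Myh2 and Myh4 of the same list had 0 or 1 read in each library, so the value of Acta1 does not mark skeletal muscle by itself. The part of cell makeup in the fall of Slc25a4 was not tested.

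Slc25a3, the phosphate carrier, is the partner of Slc25a4 and Slc25a5 in ATP synthesis, since every ADP that enters needs a phosphate. It had 26404, 19922 and 23491 reads under anti-IgG and 19289, 21394 and 19073 under anti-PD-1, which overlap. The levels were 1214 ± 123.5 and 1008 ± 121.9 CPM, and the difference did not pass (log2 fold change -0.27 with an SE of 0.21, adjusted p = 0.385 by edgeR). With the trend on coding and 3′ UTR length removed its value lay on the other side of 0, at 0.19.

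The ATP-Mg/phosphate carriers, which set the adenine nucleotide pool of the matrix and are switched on by calcium, had 3 tested members and 0 changed. Slc25a23 had 409, 566 and 861 reads under anti-IgG and 552, 707 and 921 under anti-PD-1 (log2 fold change 0.20, SE 0.27). Slc25a24 had 349, 265 and 293 against 358, 328 and 397 reads (0.20, SE 0.18). Slc25a25 had 173, 127 and 220 against 338, 109 and 238 reads (0.34, SE 0.34), the widest spread of any tested carrier with anti-PD-1, a coefficient of variation of 48.4%. The groups overlapped for all 3 (edgeR adjusted p from 0.455 to 0.627). Over 379 bp the exons of Slc25a25 overlap those of Naif1 on the opposite strand, and whether counting used strand is not stated.

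Of the malate-aspartate shuttle, which moves the electrons of cytosolic NADH into the matrix, 1 of 3 tested carriers rose. Slc25a13, the aspartate/glutamate carrier called citrin (ENSMUSG00000015112; chromosome 6, 6041218 to 6217173, minus strand), had 1637, 1274 and 1540 reads under anti-IgG and 2972, 3081 and 2344 under anti-PD-1. Every anti-PD-1 library was above every anti-IgG library. It rose from 77.4 ± 6.30 to 142.0 ± 26.8 CPM (log2 fold change 0.87 with an SE of 0.19, adjusted p = 0.0136 by edgeR). Of the 4 rises it was the one that also passed with the trend on coding and 3′ UTR length removed (0.81, edgeR adjusted p = 0.0335). The call ended without TAC2 (edgeR adjusted p = 0.0715).

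Slc25a12, called aralar, is the other aspartate/glutamate carrier and the main one of heart and brain. It had 2871, 1486 and 2358 reads under anti-IgG and 4006, 4013 and 3138 under anti-PD-1, with no overlap. Its log2 fold change of 0.70 (SE 0.24) missed the threshold (edgeR adjusted p = 0.0563), and it passed by DESeq2 (adjusted p = 0.0217), without the count filter (edgeR adjusted p = 0.0124) and without TAC1 (0.0229). With the trend on coding and 3′ UTR length removed it was 0.19 (edgeR adjusted p = 0.626). A stretch of 247 bp is near-identical between Slc25a12 and Adpgk, which had 1636 reads, so a part of its count is uncertain. The ratio of Slc25a12 to Slc25a13 reads was 1.75, 1.17 and 1.53 under anti-IgG and 1.35, 1.30 and 1.34 under anti-PD-1, a log2 difference of -0.14 (exact 2-sided permutation p = 0.5). The ratios of the groups overlapped. Per kilobase of gene length the mean ratio was 0.768 under anti-IgG and 0.688 under anti-PD-1, so by that measure Slc25a13 stood higher on average.

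Slc25a11, which returns oxoglutarate to the cytosol in exchange for malate, had 6502, 4864 and 7968 reads under anti-IgG and 6309, 6927 and 5716 under anti-PD-1. The groups overlapped and the difference did not pass (log2 fold change -0.06 with an SE of 0.21, adjusted p = 0.855 by edgeR). Its exons overlap those of Rnf167 on the opposite strand over 189 bp. Among the enzymes of the shuttle Mdh2, the matrix malate dehydrogenase, fell from 866.0 ± 106 to 480.6 ± 143 CPM (log2 fold change -0.85 with an SE of 0.25, adjusted p = 0.0376 by edgeR). With the gene length trend removed Mdh2 was at -0.76 and did not pass (edgeR adjusted p = 0.0694). Got1, Got2 and Mdh1 did not pass.

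In the class of citrate and dicarboxylates 1 of 2 tested members fell. Slc25a1, which exports citrate for the synthesis of acetyl-CoA in the cytosol (ENSMUSG00000003528; chromosome 16, 17925223 to 17928219, minus strand), had 151, 197 and 211 reads under anti-IgG and 74, 82 and 130 under anti-PD-1. The groups did not overlap. Its level fell from 9.77 ± 1.78 to 4.78 ± 1.32 CPM (log2 fold change -1.03 with an SE of 0.27, adjusted p = 0.0247 by edgeR). Without the gene length trend the value was -0.64 (edgeR adjusted p = 0.116), and the call also ended without any 1 of TAC2, TAC3, TP1 and TP2 (up to 0.106). Slc25a10, the dicarboxylate carrier, had 233, 215 and 216 against 258, 229 and 233 reads, which overlap once scaled (log2 fold change 0.06 with an SE of 0.19, adjusted p = 0.843 by edgeR). Of 3 tested genes for making and using citrate, Cs and Acly among them, 0 passed.

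Slc25a20 carries acylcarnitines into the matrix in exchange for carnitine, the step between Cpt1 and Cpt2 in fatty acid oxidation. It had 1865, 1793 and 2260 reads under anti-IgG and 1553, 1961 and 1273 under anti-PD-1. The groups overlapped, at 103.0 ± 9.13 and 81.2 ± 22.2 CPM, and the difference did not pass (log2 fold change -0.34 with an SE of 0.21, adjusted p = 0.265 by edgeR). None of the 6 tested genes of the carnitine shuttle around it passed.

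The 5 tested amino acid carriers showed 1 fall. Slc25a38, a glycine carrier that feeds haem synthesis (ENSMUSG00000032519; chromosome 9, 120110374 to 120124504, plus strand), had 325, 324 and 336 reads under anti-IgG and 202, 220 and 186 under anti-PD-1. Library values within a group lay close together and the groups did not overlap. The fall was from 17.2 ± 0.806 to 10.3 ± 1.44 CPM (log2 fold change -0.74 with an SE of 0.20, adjusted p = 0.0247 by edgeR). After removal of the gene length trend it was -0.51 (edgeR adjusted p = 0.111), and without any 1 of TAC2, TAC3, TP1 and TP3 the call ended (up to 0.0962). Alas2, the haem synthesis enzyme of red cell precursors, had 148, 201 and 253 reads against 134, 410 and 737, and the summed level of 6 red cell markers was 275 to 630 CPM under anti-IgG and 98.2 to 768 CPM under anti-PD-1. Of these markers Slc4a1 rose and 5 did not pass, and the part of red cells in the fall of Slc25a38 was not tested. The other 4 amino acid carriers, Slc25a15, Slc25a22, Slc25a29 and Slc25a44, had log2 fold changes of -0.40 to 0.48.

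Cofactor and nucleotide carriers were the largest class, with 9 tested members, of which 2 rose and 1 fell. Slc25a32, which carries folate and is linked to FAD supply (ENSMUSG00000022299; chromosome 15, 39091231 to 39112716, minus strand), had 381, 272 and 294 reads under anti-IgG and 570, 545 and 607 under anti-PD-1. The anti-PD-1 libraries were nearly equal once scaled, with a coefficient of variation of 1.53%, the smallest of the tested carriers in that group. Slc25a32 rose from 16.5 ± 2.64 to 28.9 ± 0.443 CPM (log2 fold change 0.81 with an SE of 0.18, adjusted p = 0.0148 by edgeR). The call ended without TAC2 (edgeR adjusted p = 0.0803) and with the trend on coding and 3′ UTR length removed (0.53, 0.0842), and held with the gene length trend removed (0.66, 0.0380).

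Slc25a16, a carrier linked to coenzyme A (ENSMUSG00000071253; chromosome 10, 62920633 to 62946498, plus strand), had 595, 329 and 451 reads under anti-IgG and 866, 796 and 628 under anti-PD-1. It was the 1 called carrier whose scaled libraries overlapped, since TAC1 (30.5 CPM) lay just above TP3 (30.2 CPM). Its log2 fold change was 0.70 with an SE of 0.23 (adjusted p = 0.0484 by edgeR), and its call ended in 12 of 17 other settings and without any 1 of 4 libraries (up to 0.200). Slc25a42, which carries coenzyme A in exchange for adenine nucleotides, had 470, 302 and 379 against 433, 734 and 345 reads (log2 fold change 0.37 with an SE of 0.30, adjusted p = 0.393 by edgeR). For this pair the log2 read ratio differed by 0.42 with overlap (exact 2-sided permutation p = 0.4).

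Slc25a26, the carrier of S-adenosylmethionine, the methyl donor of mitochondrial RNA and protein (ENSMUSG00000045100; chromosome 6, 94500331 to 94604672, plus strand), had 286, 263 and 371 reads under anti-IgG and 198, 204 and 207 under anti-PD-1. The groups did not overlap. It fell from 15.98 ± 2.25 to 10.3 ± 0.592 CPM (log2 fold change -0.64 with an SE of 0.20, adjusted p = 0.0428 by edgeR). The call ended without any 1 library other than TAC1 (up to 0.131) and in 7 of 17 other settings, among them the trend on coding and 3′ UTR length removed (-0.40, edgeR adjusted p = 0.209). Its exons overlap those of Lrig1 on the opposite strand over 144 bp.

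The pyrimidine nucleotide carriers did not pass. Slc25a33 had 198, 141 and 198 reads under anti-IgG and 195, 215 and 139 under anti-PD-1 (log2 fold change 0.00, SE 0.25). Slc25a36 had 1599, 1631 and 1346 against 2197, 1477 and 1864 reads (0.21, SE 0.19). Both overlapped between the groups (edgeR adjusted p = 0.995 and 0.459). Slc25a17 of the peroxisome and Slc25a51 for NAD lay at log2 fold changes of 0.06 and 0.37 and did not pass. Slc25a51 did not overlap between the groups, with 1235, 1085 and 1469 against 1853, 1611 and 1602 reads (edgeR adjusted p = 0.139).

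Iron and glutathione carriers had 4 tested members and 0 changed. Slc25a37 (mitoferrin-1), the iron carrier of red cell precursors, had 486, 581 and 363 reads under anti-IgG and 410, 317 and 422 under anti-PD-1 (log2 fold change -0.39, SE 0.23). Slc25a28 (mitoferrin-2), its form in other tissues, had 324, 292 and 337 against 200, 265 and 212 reads (-0.54, SE 0.21). Slc25a28 did not overlap between the groups and Slc25a37 did, and neither passed (edgeR adjusted p = 0.0863 and 0.234). Slc25a28 passed with upper quartile scaling (-0.63, edgeR adjusted p = 0.0466) and without TP2 (-0.70, 0.0487), and lay at 0.03 with the gene length trend removed.

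Slc25a39, needed for glutathione in the matrix, had 1542, 1497 and 2227 reads under anti-IgG and 1936, 1942 and 1825 under anti-PD-1 (log2 fold change 0.07, SE 0.19). Its paralog Slc25a40 had 263, 201 and 152 against 264, 239 and 311 reads (0.34, SE 0.24). The groups overlapped for both, with edgeR adjusted p = 0.815 and 0.323. Slc25a39 thus stood above Slc25a40 in every library, at 5.86 to 14.7 reads for each read of Slc25a40 under anti-IgG and 5.87 to 8.13 under anti-PD-1. Of the genes that use mitochondrial iron for iron-sulfur clusters, Iscu, the assembly scaffold, fell from 92.2 ± 13.4 to 38.04 ± 8.62 CPM (log2 fold change -1.28, edgeR adjusted p = 0.00608). The fall of Iscu held with the gene length trend removed (-0.89, edgeR adjusted p = 0.0165).

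Of the carriers that resemble uncoupling proteins, 1 of 3 tested members fell. Slc25a27, also called UCP4 and best known from neurons (ENSMUSG00000023912; chromosome 17, 43641891 to 43667214, minus strand), had 100, 129 and 60 reads under anti-IgG and 36, 41 and 30 under anti-PD-1. It was a low-count gene, but the groups did not overlap. The level fell from 5.11 ± 2.11 to 1.81 ± 0.378 CPM, with the lowest log2 fold change of the family, -1.49 with an SE of 0.38 (adjusted p = 0.0220 by edgeR). The fall held with the trend on gene length removed (-1.45, edgeR adjusted p = 0.0352) and with that on coding and 3′ UTR length removed (-1.52, 0.0400), and ended without TAC2 or TP1 or TP3 (up to 0.109). Slc25a14 (0.20) and Slc25a30 (0.31) did not pass. The uncoupling proteins proper stand under other symbols: Ucp2 and Ucp3 had log2 fold changes of -0.16 and -0.62 and did not pass, and Ucp1 had 0 reads.

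Slc25a46 is an unusual member, since it sits in the outer membrane and takes part in the fusion and fission of mitochondria rather than in transport. The gene (ENSMUSG00000024259; chromosome 18, 31580168 to 31609902, minus strand) had 1510, 1059 and 1124 reads under anti-IgG and 2415, 2111 and 2187 under anti-PD-1. All anti-PD-1 libraries exceeded all anti-IgG libraries. It rose from 64.3 ± 11.4 to 112.9 ± 7.67 CPM (log2 fold change 0.81 with an SE of 0.18, adjusted p = 0.0148 by edgeR). The value was 0.81 (edgeR adjusted p = 0.0230) with the gene length trend removed and 0.52 (0.0812) with that on coding and 3′ UTR length removed, and the call ended without TAC2 or TAC3 or TP1 (up to 0.0802).

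Among the 5 tested members with no settled substrate, Slc25a45 fell. It (ENSMUSG00000024818; chromosome 19, 5877808 to 5885766, plus strand) had 116, 220 and 129 reads under anti-IgG and 94, 76 and 65 under anti-PD-1. The groups did not overlap, and TAC2 stood apart from the other libraries of its group, with a coefficient of variation of 42.9%, the largest of the tested carriers there. The fall was from 8.24 ± 3.53 to 3.96 ± 0.788 CPM (log2 fold change -1.05 with an SE of 0.33, adjusted p = 0.0426 by edgeR). Without TAC2 the value was -0.66 (edgeR adjusted p = 0.217), and the call ended in 9 of 17 other settings and without any 1 library other than TAC1. Slc25a34 was the most abundant member of this class, with 954, 855 and 1263 reads against 1509, 2023 and 987 (log2 fold change 0.53 with an SE of 0.27, adjusted p = 0.181 by edgeR). It overlapped between the groups because TP3 lay below every anti-IgG library once scaled. Slc25a47, best known from liver, had 79, 78 and 70 against 59, 29 and 55 reads and did not pass (-0.73, edgeR adjusted p = 0.140). Beside it, the liver gene Alb had 1752, 401 and 2 reads under anti-IgG and 25, 12 and 8 under anti-PD-1, and Ttr fell (log2 fold change -3.84, edgeR adjusted p = 0.0183), a call that ended with the gene length trend removed (-3.29, 0.0633). Alb differed between anti-IgG libraries far more than Slc25a47 did, and the part of liver RNA in the level of Slc25a47 was not tested.

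**Figure D3:**
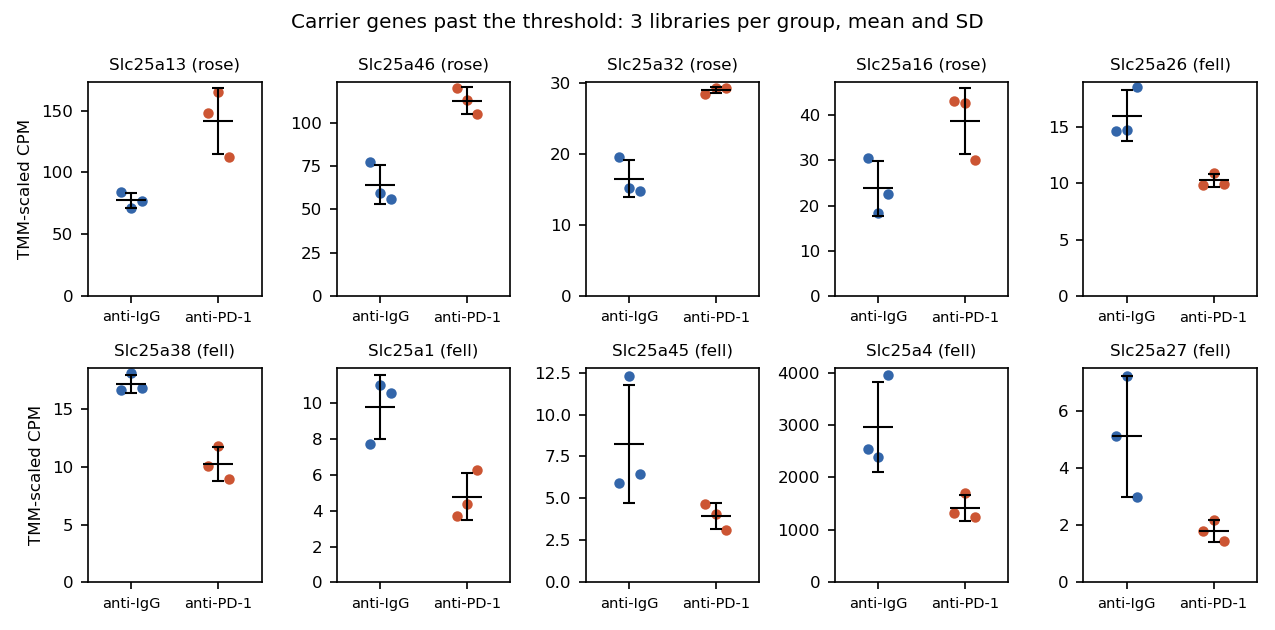
TMM-scaled CPM (y axis, from 0) of the 10 carriers that changed, by group (x axis), with 1 point per library (blue anti-IgG, red anti-PD-1, TAC1 to TAC3 or TP1 to TP3 from left to right) and bars for the mean and SD. The groups do not overlap in 9 panels, and in that of Slc25a16 the highest anti-IgG library lies just above the lowest anti-PD-1 library.

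Paralogs with a shared substrate were compared by the ratio of their reads within each library, in 9 pairs with both genes tested. Slc25a4/Slc25a5 was the 1 pair whose groups did not overlap (exact 2-sided permutation p = 0.1, and 0.9 after adjustment over 9 pairs). Of single tested genes 41.0% did not overlap, and no such share was worked out for ratios of other genes. In the other 8 pairs the log2 ratio differed by -0.29 to 0.42 (exact 2-sided permutation p from 0.4 to 1.0). The tenth pair, Slc25a22/Slc25a18, could not be tested because Slc25a18 had too few reads. Coding sequences of the pairs were identical at 49.2% (Slc25a10/Slc25a11) to 77.4% (Slc25a4/Slc25a5) of aligned bases.

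**Figure D4:**
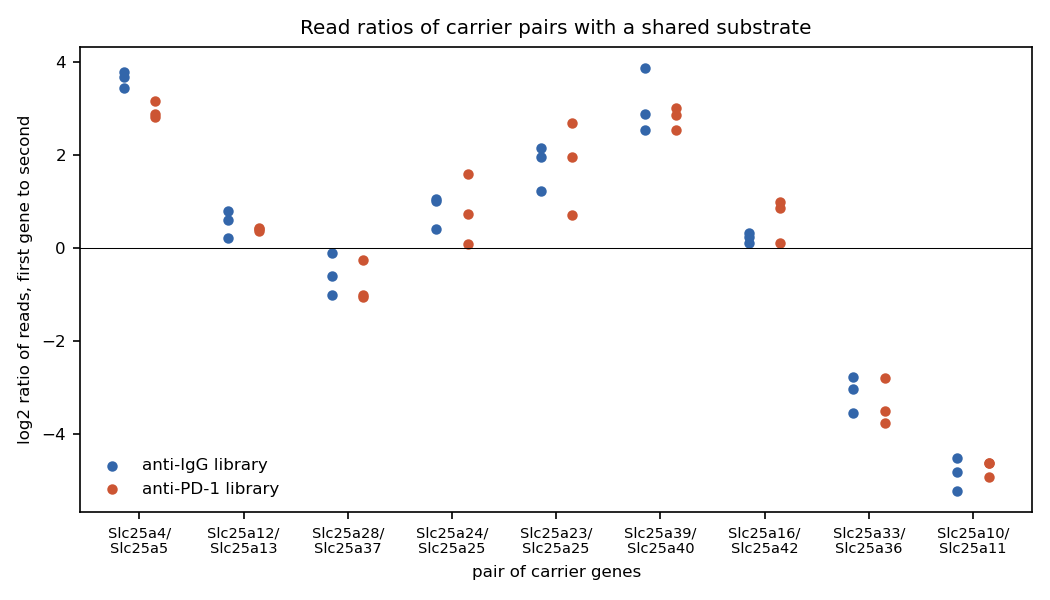
Log2 ratio of the reads of the first to the second gene of each pair (y axis) in every library, for 9 pairs (x axis), blue for anti-IgG and red for anti-PD-1. Slc25a4/Slc25a5 is the pair in which all red points lie below all blue points.

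By class, the adenine nucleotide carriers held 68.8 ± 4.58% of the summed RPKM of the carriers under anti-IgG and 53.6 ± 1.25% under anti-PD-1. The malate-aspartate carriers held 9.68 ± 0.994% and 16.03 ± 0.696%, and the phosphate carrier 11.2 ± 2.44% and 13.7 ± 0.374%. Cofactor carriers stood at 2.53 ± 0.438% and 4.43 ± 0.402%, and Slc25a46 of the outer membrane at 0.756 ± 0.226% and 1.96 ± 0.248%. These shares sum to the whole, so a lower share of Slc25a4 raises the others. They also rest on the authors' gene length. Per kilobase of coding and 3′ UTR length Slc25a3 stood nearer to Slc25a4, at 972 against 1895 under anti-IgG and 807 against 910 under anti-PD-1. The summed RPKM itself was 194.1 ± 33.4 and 214.0 ± 34.1 for the malate-aspartate carriers, and 49.8 ± 3.21 and 58.7 ± 6.19 for the cofactor carriers.

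By the authors' gene length, the carriers that fell had 2164 to 4807 bp and those that rose 3798 to 6081 bp, and these ranges overlap. By coding and 3′ UTR length together they did not overlap, since every carrier that rose was longer than every one that fell. Slc25a26 (4807 bp) and Slc25a27 (3935 bp), which fell, were longer than Slc25a13 (3798 bp), which rose, by the authors' gene length only. Their coding and 3′ UTR lengths were 822 and 1006 bp (Slc25a26), 966 and 1717 bp (Slc25a27), and 2028 and 931 bp (Slc25a13). Of 14 tested carriers under 3000 bp, 0 rose and 4 fell, and their median was -0.38 on the log2 scale, beside -0.49 over the 4902 tested genes of that length, of which 2.41% rose and 22.4% fell. Of 12 carriers from 3000 to under 5000 bp, 3 rose and 2 fell (median 0.13, against -0.03 of all such genes, of which 5.76% rose and 7.96% fell). Of 13 carriers of at least 5000 bp, 1 rose and 0 fell (median 0.34, against 0.28 of all such genes, of which 20.04% rose and 2.97% fell). The medians of the carriers thus followed the same order with length as those of all tested genes. Across the 39 tested carriers, which share the 6 libraries and are not replicates, Spearman's rho of the log2 fold change was 0.47 with gene length, 0.61 with 3′ UTR length, 0.41 with coding length and -0.48 with GC content, and over all tested genes it was 0.49 with gene length and, in those with such a length, 0.48 with 3′ UTR length.

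**Figure D5:**
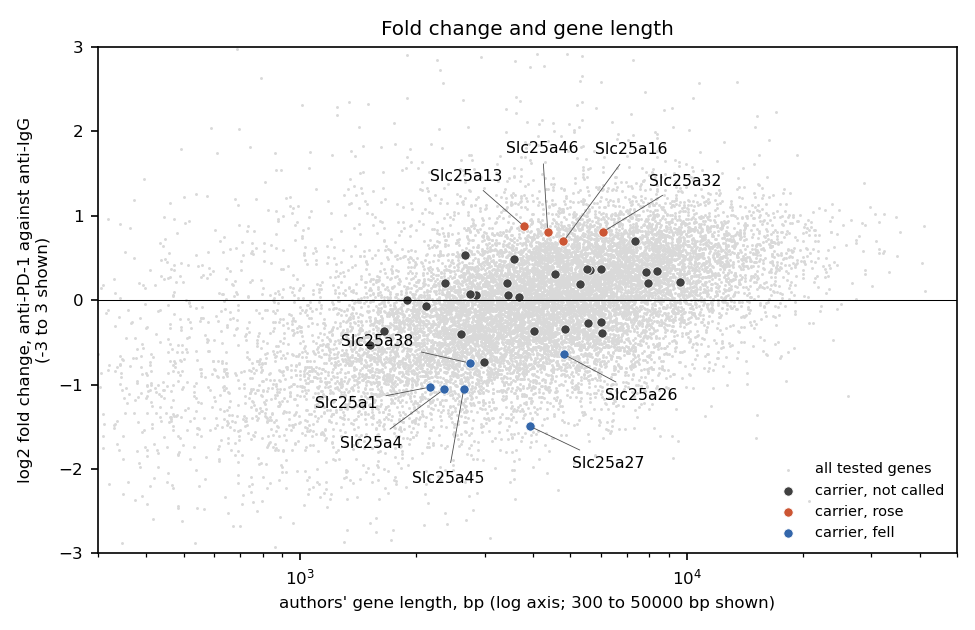
Log2 fold change with anti-PD-1 against anti-IgG (y axis) by the authors' gene length in bp (x axis, log scale), for all tested genes in light grey and the 39 tested carriers in dark (not called), red (rose) and blue (fell). The blue carriers lie between 2164 and 4807 bp and the red ones between 3798 and 6081 bp. Slc25a13 (0.87) lies at 3798 bp and Slc25a27 (-1.49) at 3935 bp, where the median of all tested genes from 3000 to under 5000 bp was -0.03.

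When each library's trend on gene length was removed, 5 carriers changed, beside 10.3% of all tested genes. Slc25a13, Slc25a46 and Slc25a32 were higher and Slc25a27 and Slc25a26 lower. With the trend on coding and 3′ UTR length removed, 2 changed, Slc25a13 upwards and Slc25a27 downwards, beside 6.40% of all tested genes. The medians of the carriers were 0.11 and 0.18 after these corrections, and those of all tested genes 0.01 and -0.03. The part of RNA quality or library preparation in the relation to length was not tested.

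Outside the Slc25a symbols, 27 of 28 listed genes of mitochondrial transport were tested: 2 rose, 2 fell and 23 did not pass, where 21.1% of all tested genes changed (10.3% rose, 10.8% fell). The median was -0.15 on the log2 scale. Abcb10, which serves haem synthesis, rose from 29.2 ± 7.28 to 52.5 ± 9.29 CPM (log2 fold change 0.84 with an SE of 0.22, adjusted p = 0.0225 by edgeR). Mpc2, a subunit of the pyruvate carrier, fell from 243.0 ± 36.5 to 141.4 ± 13.5 CPM (-0.78 with an SE of 0.19, adjusted p = 0.0189 by edgeR), while Mpc1, the other subunit, did not pass (-0.15). Smdt1, the EMRE subunit of the calcium uniporter, fell from 68.3 ± 13.7 to 22.9 ± 5.14 CPM (-1.58 with an SE of 0.22, adjusted p = 0.00395 by edgeR). Abcb10, Mpc2 and Smdt1 were past the threshold with the gene length trend removed too. Of 28 tested enzymes that hand substrates to the carriers, 0 rose and 3 fell, Mdh2 and Iscu among them, beside the same 21.1% of all tested genes, and the median was -0.03.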

How the data were processed

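The authors deposited raw read counts per gene (18063344 to 21093163 per library), with featureCounts and mm10 named in the submitters' processing notes; versions, the aligner and the strand setting were not given in the sources used here. FPKM values, which the authors also deposited, served in alternatives on log2(FPKM + 1) and log2(FPKM + 0.1). The counts were tested over all genes with edgeR 4.0.16 (R 4.3.3; filterByExpr, TMM, glmQLFit with robust=TRUE, 2-sided, Benjamini-Hochberg, threshold 0.05), which was tested on simulated data. Alternatives used DESeq2 1.42.0, limma 3.58.1, other scalings and filters, each library left out, and removal of the trend in log2 CPM (prior count 2) with gene length, coding and 3′ UTR length or GC content, library by library, by a spline of 5 degrees of freedom. Read ratios had 0.5 read added for the test. Coding and 3′ UTR lengths and sequences are from GENCODE M21, of the transcript with the longest coding sequence.

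The members and lists were chosen with earlier results of these data known. Full values are given for carriers past the threshold, tested pairs, the 8 highest per length and Slc25a1, Slc25a3 and Slc25a20; in other lists, members past the threshold. Slc25a51 and Slc25a47 were named after their values were seen. A few results are not reported here. Intervals cover counting error only.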

Additional observations from a re-analysis of the deposited data

How the results depend on the processing

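The count of changed carriers was 10, and 8 to 11 with other scalings, count filters, GC trend removed, DESeq2 (11) or limma-voom (8). Beside these counts 14.4% to 25.4% of all tested genes changed. By limma-trend on FPKM 7 carriers changed, beside 18.4% to 25.1%. The count was 5 with the gene length trend removed (2 falls), beside 10.3%. It was 2 with the trend on coding and 3′ UTR length removed (1 rise, 1 fall), beside 6.4%. With GC content added to that trend, a setting chosen after the data were seen, it was also 2 (1 rise, 1 fall), beside 7.13%. With the GC trend alone removed 3 fell, beside 9.54%. At an adjusted p under 0.01, 0 changed by edgeR (0 rose, 0 fell), beside 3.86% of all tested genes, and 13 carriers had an unadjusted p under 0.05. Of the 10, 4 moved by at least 1 on a log2 scale (0 rises), beside 9.62% of all tested genes. Leaving out 1 library gave 1 to 11 changed carriers, beside 3.52% to 24.1% of all tested genes. Of the carriers 0 to 5 rose and 0 to 6 fell, beside 1.43% to 11.9% and 2.09% to 12.2%. The same fits gave 1 to 5 changed genes of other mitochondrial transport and 1 to 3 partner enzymes. With the gene length trend removed 1 partner enzyme passed, where 10.3% of all tested genes did. The deviations of same-numbered libraries had r = 0.124, -0.143 and 0.214, and those of differently numbered ones -0.344 to 0.198. With 3 libraries per group these values cannot tell whether the numbers mark pairs. With the replicate block 10 carriers changed (5 rose, 5 fell), where 22.7% of all tested genes did. With the block and the gene length trend removed 4 changed (1 fell), where 9.9% of all tested genes did. Slc25a12 passed with the block (0.72, edgeR adjusted p = 0.0487) and did not with the block and the gene length trend removed (0.48, 0.222). Upper quartile scaling put the median of all genes at -0.12 and that of the carriers at -0.03. There 3 carriers rose and 7 fell, beside 7.96% and 13.7% of all tested genes. Of the values of single carriers under an alternative, 534 stayed on their side of the threshold, 79 no longer passed and 7 newly passed. These values pool called carriers with carriers that were not called, and all 79 belong to the 10 called ones. The calls were thus less stable than the pooled counts show, and the causes were not tested. The pair test cannot pass with 3 libraries against 3; of 72 alternative values of 9 pairs, 10 in 5 pairs changed sign, all with 1 library left out, such as Slc25a39/Slc25a40 (-0.29, and 0.09 without TAC3). The 8 carriers with 57 reads or fewer in all were below the count filter.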
